A study of Mus musculus with 11 samples.

Results

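The ligands and receptors of the 4 classical axon guidance systems were followed through the cell classes of the mouse retina at postnatal day 10 (P10). The members were set by a rule on gene symbols, and 63 of the 25311 genes in the count table carried such a symbol. They comprised 5 ephrin-A ligands, 3 ephrin-B ligands, 9 EphA receptors, 5 EphB receptors, 20 semaphorins, 8 plexins, 2 Slits, 4 Robo receptors, 2 netrins and 5 netrin receptors of the Unc5 and Dcc families.

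These proteins steer growing axons, and many of them also act in migration, synapse formation and vessel growth. Ephrins are held at the cell surface, ephrin-A by a lipid anchor and ephrin-B by a transmembrane stretch, and bind Eph receptor tyrosine kinases on neighbouring cells, where each side can signal. Secreted and membrane-bound semaphorins act through plexins, Slits act through Robo receptors, and netrins act through Dcc and the Unc5 receptors. In the eye, graded Eph and ephrin levels order the projection of ganglion cells onto the brain, and semaphorins and plexins sort the neurites of the inner retina into layers.

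Retinal cells came from 11 C57BL/6J mice killed at P10, and each mouse gave 1 inDrop library, a droplet method that counts mRNA molecules by unique molecular identifiers (UMIs). The control group (n = 3) received the vehicle PBS. The Phase I ROP group (n = 3) were littermates of the control mice that received streptozotocin (STZ), which destroys insulin-producing cells and so models the hyperglycaemia-associated first phase of retinopathy of prematurity. The ω-3 group (n = 2) and the ω-6 group (n = 3) also received STZ, and were littermates of one another that were split between cages, with nursing dams fed a diet enriched in DHA and EPA without arachidonic acid (ω-3) or in arachidonic acid without DHA or EPA (ω-6). No diet mouse was without STZ, so the diets could be compared only under hyperglycaemia. STZ was injected daily from the first postnatal days, litters given STZ were kept smaller, and the anterior segment and pigment epithelium had been dissected away before papain dissociation.

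The libraries held 2563064 to 6516478 UMIs each, and 20033 cells with more than 300 genes were kept. The cell classes were rebuilt by clustering and named from marker genes, so rods, cones, bipolar cells, amacrine cells and Müller glia stand below for rod-like to Müller-like clusters. Every marker on the lists of these 5 classes was over 2-fold higher in its class than in the other cells, although in 5 of the rod clusters the 10 leading genes included no rod marker. Between libraries, 1157 barcodes were shared by 2352 cells, and the doublet caller marked only 0.359% of cells, so it was taken not to have worked. Over all cells the 3 control libraries stood apart from the 8 STZ libraries. The immediate early gene Fosb lay at 0.390 to 0.890 UMIs per 1000000 (CPM) in control libraries and at 116 to 149 in Phase I ROP libraries, and the small nuclear RNA Rn7sk at 193 to 290 against 1.15 to 9.38. The sample labels name no batch. Any unrecorded difference between the libraries cannot be told apart from STZ treatment in any comparison of control with Phase I ROP mice below.

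The members differed widely in how much was seen of them. Over all cells, the fewest UMIs were the 13 of Ntn1 and the most were the 9544 of Plxna2. The mean level reached 20 CPM in at least 1 of the 5 large classes for 40 members and stayed under it in every one for 23. Of the 63 members, 25 had their highest mean level in Müller glia, 24 in amacrine cells, 8 in bipolar cells, 5 in cones and 1 in rods. By the median over mice, Müller glia and amacrine cells each led for 23. These counts of means include members with very few UMIs, such as Robo4, placed in amacrine cells on 2 UMIs. The share of all genes highest in each class is not given. The highest class was the same in all 11 mice for 16 members, and for 11 members the mice of the highest class did not overlap those of the next. These levels are a description without a test, because the classes were built from the same cells and 10 members were among the 2000 genes used for clustering.

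**Figure D1:**
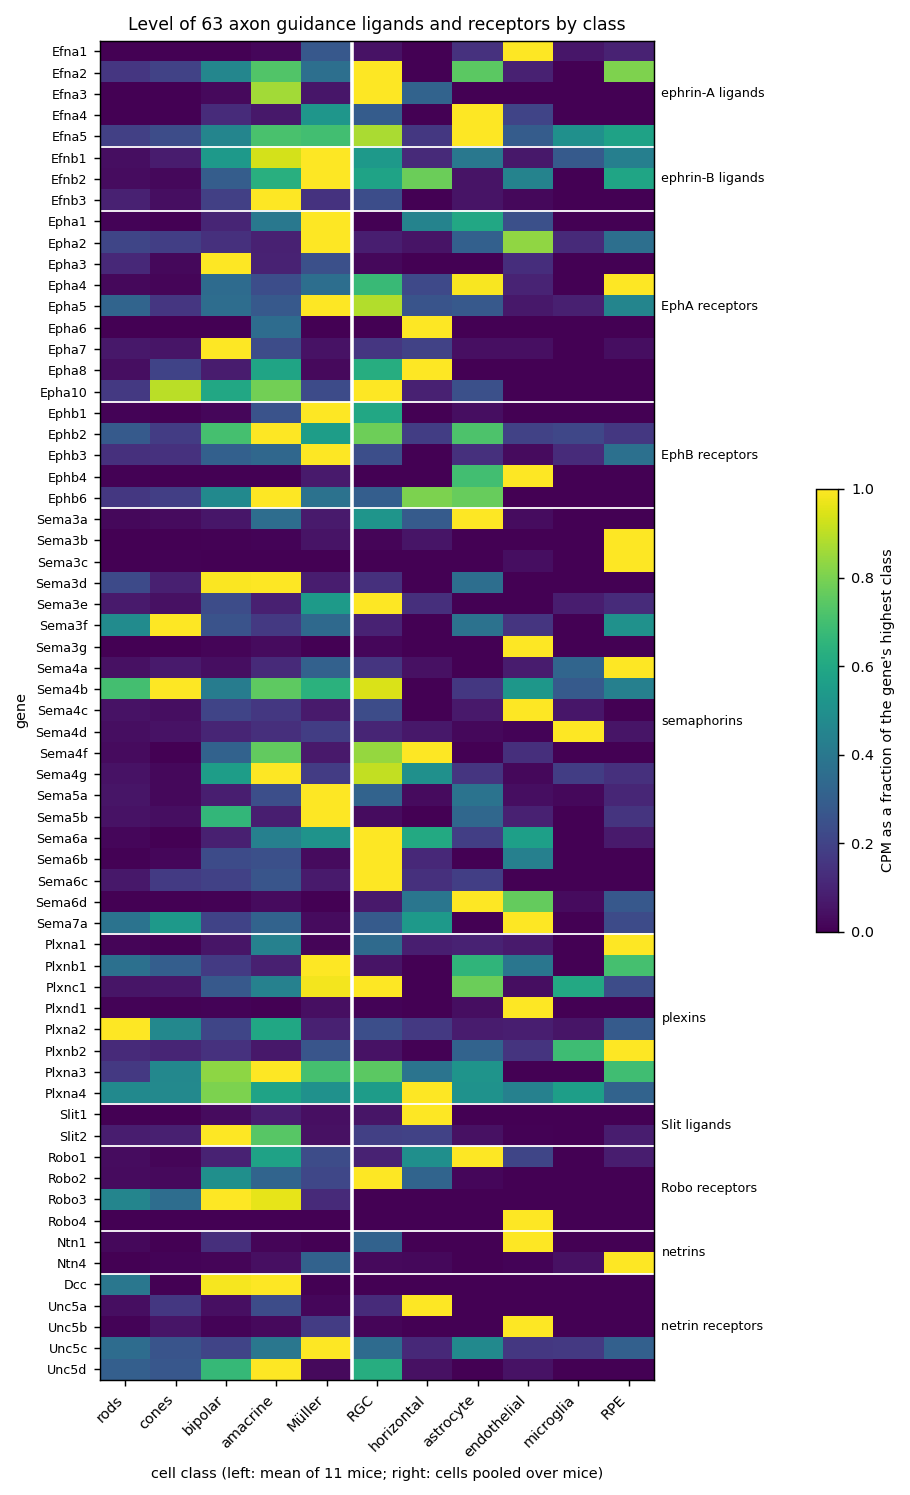
Level of the 63 members in 11 cell classes, each as a fraction of that gene's highest class (colour, 0 to 1). The left 5 columns are means of 11 mice in UMIs per 1000000 scaled by TMM, the right 6 are small classes pooled over mice in plain UMIs per 1000000. Amacrine cells and Müller glia hold the highest of the 5 left-hand columns for 24 and 25 members.

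Müller glia, the radial glia that span the retina, led the 5 large classes for the most members by mean level, but not by median. Efna1, an ephrin-A ligand, lay at 28.0 ± 9.46 CPM (SD, n = 11 mice) in Müller glia and at 1.68 ± 2.33 in amacrine cells, the next class. Ntn4, a netrin of basement membranes, lay at 42.5 ± 15.1 CPM against 5.71 ± 2.58 in amacrine cells. Sema5a, a transmembrane semaphorin with thrombospondin repeats, lay at 273 ± 41.0 CPM against 65.5 ± 16.8. For these 3 genes the Müller level was the highest in all 11 mice and did not overlap that of any mouse's amacrine cells. The EphB receptors Ephb1 (93.5 ± 27.1 CPM against 24.1 ± 8.40 in amacrine cells) and Ephb3 (52.0 ± 14.0 against 17.3 ± 8.82) were also highest here. Epha2, the EphA receptor known for epithelial and lens roles, lay at 105 ± 58.3 CPM in Müller glia and 21.9 ± 10.1 in rods, and Müller glia were its highest class in 9 of 11 mice.

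Amacrine cells, the inhibitory interneurons of the inner retina, were marked by a different set. The ephrin-A ligand Efna3 lay at 36.5 ± 14.0 CPM there and at 2.60 ± 2.81 in Müller glia. Plxna1, a receptor for semaphorins, lay at 97.2 ± 27.3 CPM against 12.3 ± 5.78 in bipolar cells, and the ephrin-B ligand Efnb3 at 68.0 ± 22.9 against 13.0 ± 6.52. Robo1, a Slit receptor, lay at 68.1 ± 9.29 CPM against 27.3 ± 11.2 in Müller glia. All 4 were highest in amacrine cells in all 11 mice, without overlap with the next class. Epha8 and Ephb6 (a kinase-dead Eph receptor) were 2.89-fold and 2.10-fold above their next class, with overlap between mice.

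In bipolar cells, which carry signals from photoreceptors inward, the clearest member was Epha7. It lay at 257 ± 51.4 CPM against 60.2 ± 15.6 in amacrine cells, highest in all 11 mice and without overlap. Epha3 lay at 66.3 ± 22.2 CPM against 16.2 ± 11.4 in Müller glia. Robo2 (198 ± 40.5 CPM), its ligand Slit2 (243 ± 44.3) and the plexin Plxna4 (244 ± 34.8) were also highest in bipolar cells, but within 1.54-fold of amacrine cells and with overlap between mice. Sema4c was 1.27-fold above amacrine cells.

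Photoreceptors had few members of their own. Plxna2, a receptor for class 6 semaphorins, was the only member highest in rods, at 336 ± 113 CPM against 200 ± 46.5 in amacrine cells, and was highest there in 10 of 11 mice. Cones led for the secreted semaphorin Sema3f, at 57.0 ± 15.5 CPM against 27.5 ± 12.5 in rods, in 10 of 11 mice. Sema7a, Sema4b and Epha10 were also highest in cones, by 1.41-fold, 1.33-fold and 1.14-fold, and their mice overlapped those of the next class.

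The sub-clusters, pooled over mice with exact Poisson 95% intervals that cover counting error only, divided some of these levels further. Slit2 lay at 869 CPM (830 to 910) in the 927 OFF cone bipolar-like cells, where Plxna4 lay at 548 (517 to 580) and Epha3 at 117 (103 to 132). Epha7 lay at 292 CPM (279 to 305) and Robo2 at 253 (241 to 265) in the 2669 ON bipolar-like cells. In these sub-clusters the ligand and its receptor were thus high in different cells, since Slit2 was at 50.6 CPM (45.4 to 56.2) in the ON cells and Robo2 at 30.6 (23.6 to 38.9) in the OFF cells, a contrast noticed after the values were seen. The split itself depended on the clustering. With the members, their pathway effectors and the markers left out of the variable genes, the OFF-like cluster held 2836 cells and the ON-like cluster 615. The contrast was not examined in that clustering. In the 128 starburst amacrine-like cells Robo2 reached 400.3 CPM (363 to 441), Sema7a 182 (157 to 210), Ephb6 143 (120.4 to 168) and Sema3d 50.4 (37.6 to 66.1). Efna3, Plxna1 and Robo1 lay at 54.7, 125 and 104 CPM in the 1494 GABAergic amacrine-like cells. Sema4g lay at 82.6 CPM (73.3 to 92.9) in the 1356 amacrine cells marked by Ebf3. Epha8 lay at 96.3 CPM (79.7 to 115) in an amacrine cluster of 309 cells. Its closest sub-class was glycinergic, with Slc6a9 the only listed amacrine marker among its 10 leading genes.

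The small classes added levels of their own. Efna1, low in the large neuron classes and named here after its values were seen, lay at 101 CPM (78.6 to 128) in the 113 endothelial-like cells. Robo4, the Robo of vascular endothelium, had 85 of its 88 UMIs in those cells, at 125 CPM (99.4 to 154). There too Plxnd1, the endothelial receptor for Sema3e, lay at 198 CPM (166 to 234), Sema6d at 161 (132 to 194), Sema3g at 39.5 (26.1 to 57.5) and Ephb4, the venous partner of Efnb2, at 30.8 (19.0 to 47.0). Rgs5, a mural cell gene, was among the leading genes of that cluster, so pericytes may be included. Sema3e, the ligand of Plxnd1, lay at 79.1 CPM (65.3 to 95.1) in the 96 ganglion cell-like cells, with Efna3 at 42.3 (32.4 to 54.4), Sema6b at 23.6, Sema6c at 19.4 and Sema6d at 14.6. The 75 pigment epithelium-like cells that remained after dissection had Sema3c at 559 CPM (425 to 723), Plxnb2 at 347 (243 to 481), Plxna1 at 222 (140.6 to 333), Sema3b at 145 and Ntn4 at 135. Astrocyte-like cells (47) had Epha4 at 229 CPM (177 to 293), Sema6d at 211, Robo1 at 118, Plxnb2 at 111 and Sema3a at 46.6. Horizontal-like cells (31) had Sema6a at 164 CPM (125 to 210), Slit1 at 88.5 (60.9 to 124), Sema6d at 83.1, Unc5a at 50.9 and Epha8 at 45.6. Microglia-like cells (59) had Plxnb2 at 239 CPM (169 to 329), and both Sema4d and Plxna4 at 170.0 (112 to 247).

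Control and Phase I ROP mice were then compared within each large class on UMI counts summed per mouse, with edgeR's quasi-likelihood test across all genes and the Benjamini-Hochberg adjustment (adjusted p under 0.05). A member is called below where it passed this test. Of the 63 members, 44 had enough counts to be tested in at least 1 class, and 25 of them were called in at least 1 class, 21 higher and 4 lower in a class. Because Plxna2 and others were tested in several classes, this made 100 tests, with 26 calls higher and 5 lower in Phase I ROP. In amacrine cells 12 of 38 tested members rose and 1 fell, where 18.3% of all genes tested there rose and 20.5% fell. In bipolar cells 9 of 27 rose and 0 fell (all genes 21.3% and 23.9%), with 12 at an unadjusted p under 0.05. In rods 3 of 12 rose and 4 fell (all genes 17.9% and 20%), and in Müller glia 2 of 19 rose and 0 fell (all genes 5.81% and 5.03%), with 3 at an unadjusted p under 0.05. In cones 0 of 4 were called (all genes, either direction, 18.8%), with 1 at an unadjusted p under 0.05.

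Most called members were thus higher in Phase I ROP, while over all genes more fell than rose in amacrine cells, bipolar cells and rods. In amacrine cells 35 of the 38 tested members had a positive log2 fold change, with a median of 0.57 against 0.02 over all genes. The low-count filter could be passed on the counts of 1 group alone. Ephb3 in amacrine cells, with 7, 5 and 5 UMIs in control and 19, 29 and 20 in Phase I ROP mice, passed it through Phase I ROP. Efnb1 in bipolar cells, with 4, 3 and 4 against 25, 12 and 26, did too. Such members enter as rises, so the counts and medians of members are a description. The amacrine calls depended on how the class was drawn. When cells were clustered without the members, effectors and markers, a cluster of 1417 cells led by amacrine and ganglion cell genes stayed unnamed, the amacrine class held 1932 cells in place of 3287, and 7 members were called in place of 13. In that clustering Efna2, Plxnb2, Efnb3 and Plxna1 were called, while Unc5d (log2 fold change 0.88, adjusted p = 0.202), Efnb1 (1.13, 0.0706), Efna3 (0.51, 0.426), Sema4g (0.67, 0.0634), Plxna2 (0.39, 0.283) and Plxna4 (-0.29, 0.283) were not, and Sema4c, Sema4f and Ephb3 had too few counts to be tested. The same medians were 0.49 and 0.02 for bipolar cells, 0.31 and 0.02 for rods, 0.28 and 0.00084 for Müller glia, and -0.02 and 0.10 for cones. The members that were not tested in any class were Efna1, Efna4, Epha1, Epha6, Ephb4, Sema3b, Sema3c, Sema3g, Sema4a, Sema6b, Sema6c, Sema6d, Plxnd1, Slit1, Robo3, Robo4, Ntn1, Unc5b and Dcc, of which Epha6 and Dcc had 15 and 31 UMIs in all cells. Beside the rises, the 10 rod markers, none at 0, took 0.0207 to 0.0290% of the UMIs of control amacrine cells and 0.0689 to 0.119% of those of Phase I ROP, 0.0709 to 0.132% and 0.153 to 0.252% in bipolar cells, and 0.00858 to 0.0481% and 0.0860 to 0.252% in Müller glia. The 12 Müller markers, of which at most 1 was at 0, also took more in Phase I ROP, 0.0806 to 0.0873% against 0.107 to 0.135% in amacrine cells and 0.0255 to 0.0371% against 0.0458 to 0.0469% in bipolar cells. The 8 cone markers (2 at 0 in control and 0 in Phase I ROP) took 0.00242 to 0.00696% against 0.00775 to 0.0102% in amacrine cells. In Müller glia the cone markers (2 and 1 at 0) took 0.000775 to 0.00306% against 0.00707 to 0.0392%, and the 16 amacrine markers (2 and 5 at 0) 0.0737 to 0.0858% against 0.0957 to 0.110%. Of the members called in amacrine or bipolar cells, Efnb1, Efnb2, Plxnb2 and Ephb3 had their highest level in Müller glia. Plxna2, called in both, had its highest level in rods. Sema7a and Epha10, called in bipolar cells, had theirs in cones. Sema7a had a mean level of 45.5 CPM in cones, 32.3 in rods and 17.2 in bipolar cells. The part of these markers in the results was not tested.

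**Figure D2:**
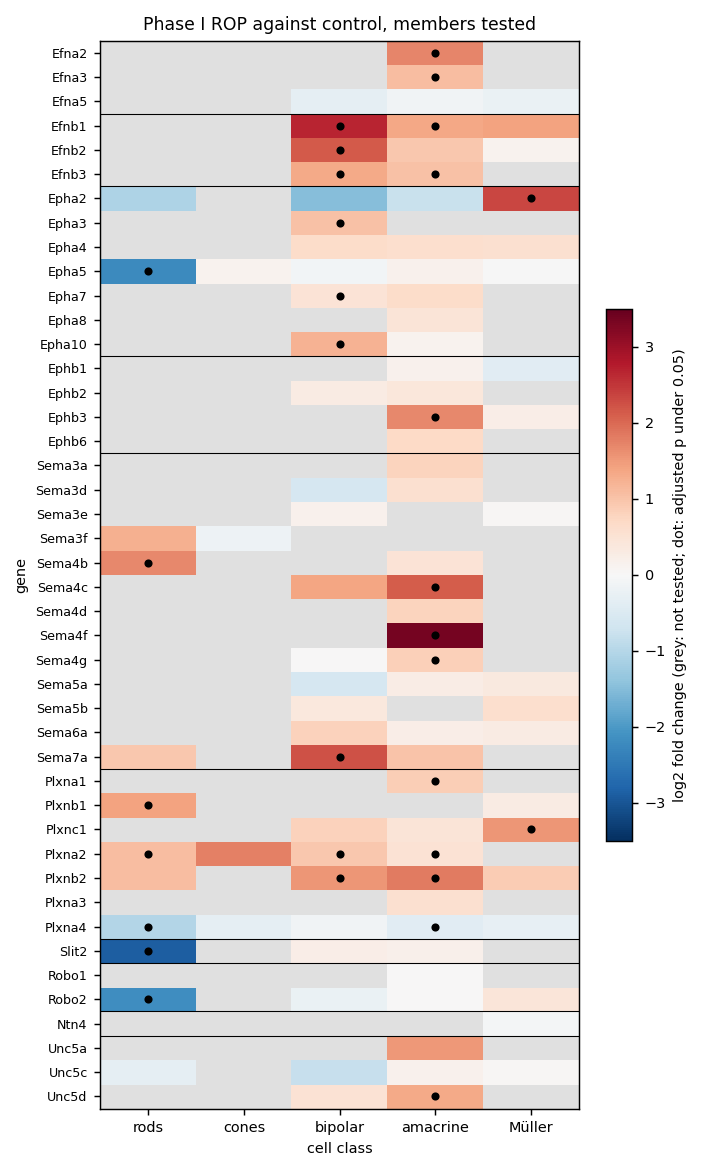
Log2 fold change (colour) of Phase I ROP against control for the 44 tested members in 5 classes, from edgeR. Dots mark the 31 calls at an adjusted p under 0.05 and grey fields were not tested. In amacrine cells 35 of 38 fields are positive, and in rods 4 of the 7 dots are negative.

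The ephrin-B ligands were the family with the most calls for its size, with 5 calls in 8 tests of its 3 members, all higher. These calls were in bipolar and amacrine cells, where 21.3% and 18.3% of all genes tested rose. Several of the 5 calls were lost in alternative fits, as given below. The shares of all genes given above also stand beside the counts of each family that follows. Single control and Phase I ROP mice are printed only for called members whose groups did not overlap. The lack of overlap in them is thus part of that choice, and its share over all genes is not given. Efnb1 rose in both inner retinal neuron classes. In bipolar cells its level was 5.53, 4.22 and 4.81 CPM in the control mice and 37.5, 21.0 and 35.5 in the Phase I ROP mice, and the groups lay far apart. The log2 fold change was 2.66 ± 0.44 (SE; adjusted p = 0.000271). In amacrine cells Efnb1 lay at 22.4, 19.1 and 13.3 CPM in control and 44.8, 41.6 and 58.0 in Phase I ROP mice, again without overlap (log2 fold change 1.35 ± 0.29, adjusted p = 0.00222, not called in the clustering without members). The difference between these effects did not pass the test (log2 -1.15, adjusted p = 0.415). In Müller glia Efnb1 missed the threshold at 1.40 ± 0.51 (adjusted p = 0.0944). That effect was not shown to differ from those in bipolar and amacrine cells in the same test of the difference (adjusted p = 0.493 and 0.976).

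The bases before the Efnb1 start are shown because Efnb1 was called with the smallest adjusted p in bipolar cells and again in amacrine cells. The 250 bases end at the RefSeq start of the gene on the X chromosome (GRCm38.p6, chrX:99135811-99136060, plus strand), hold 60.0% G and C, and are printed 5′ to 3′ with no letters in capitals because neither motif described with Epha2 was found in them.
Efnb1: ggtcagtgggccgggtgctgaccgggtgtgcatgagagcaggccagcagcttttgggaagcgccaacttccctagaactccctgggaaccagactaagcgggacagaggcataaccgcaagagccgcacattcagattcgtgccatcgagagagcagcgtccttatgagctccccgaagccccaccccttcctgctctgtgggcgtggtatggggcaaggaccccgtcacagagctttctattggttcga

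Efnb3 rose in amacrine cells from 37.7 ± 11.7 to 77.7 ± 11.8 CPM (SD, n = 3 and 3; log2 fold change 1.03 ± 0.24, adjusted p = 0.00437). In bipolar cells its call was less secure. It went from 7.63 ± 4.20 to 19.1 ± 5.54 CPM (1.33 ± 0.46, adjusted p = 0.0291), and the call was lost without any 1 of control replicates 2 and 3 and Phase I ROP replicates 2 and 3 (adjusted p = 0.0853 to 0.161), with DESeq2 (0.105) and with all 4 groups in 1 fit (0.0557). Efnb2, an arterial and neural ephrin, rose in bipolar cells from 8.52 ± 10.9 to 37.9 ± 8.64 CPM (2.16 ± 0.62, adjusted p = 0.0111). Control replicate 1, at 20.8 CPM, stood above the other controls, and without it the log2 fold change was 3.79. The Efnb2 call was lost without Phase I ROP replicate 3 (adjusted p = 0.0578) and with DESeq2 (0.143). In amacrine cells and Müller glia Efnb2 was not called (0.93, adjusted p = 0.0539, and 0.13, adjusted p = 0.881). Neither effect was shown to differ from that in bipolar cells in the test of the difference (adjusted p = 0.431 and 0.142).

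Of the ephrin-A ligands, 2 of 3 tested members rose, both in amacrine cells. Efna2 lay at 22.4, 11.2 and 9.31 CPM in the control mice and at 43.8, 51.0 and 50.7 in the Phase I ROP mice. Every Phase I ROP mouse lay above every control mouse, with a log2 fold change of 1.70 ± 0.33 (adjusted p = 0.00101). Efna3 rose from 21.3 ± 1.09 to 45.7 ± 5.23 CPM (1.07 ± 0.26, adjusted p = 0.00532), and was not called in the clustering without members (0.51, adjusted p = 0.426). Efna5, a ligand that repels temporal retinal axons, had values of -0.30 (bipolar), -0.13 (amacrine) and -0.22 (Müller), none of which was called.

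Of the 7 EphA receptors tested, 4 rose in a class and 1 fell. Epha2 in Müller glia had the largest log2 fold change of the called receptors. Its level was 8.29, 19.8 and 41.8 CPM in the control mice and 123, 121 and 131 in the Phase I ROP mice. The Phase I ROP mice were close together and all above the controls, at a log2 fold change of 2.33 ± 0.43 (adjusted p = 0.00358), and no alternative fit lost the call. In the other classes with a test of their own Epha2 was not called. Its values there were negative, at -1.08 in rods (adjusted p = 0.0508), -0.77 in amacrine cells (0.156) and -1.50 in bipolar cells (0.0620). The difference between the Müller effect and each of these passed the test of the difference, by log2 3.52 against rods (adjusted p = 0.00184), 3.86 against bipolar cells (0.00813) and 3.04 against amacrine cells (0.0245). Cones had too few Epha2 counts for a test on their own, with means of 12.6 CPM in control and 20.4 in Phase I ROP. In the test of the difference the Müller effect was not shown to differ from that in cones (log2 1.435, adjusted p = 0.810).

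The promoter of Epha2 is shown for that contrast between classes. It lies on chromosome 4 (RefSeq, GRCm38.p6, chr4:141300971-141301220, plus strand), ends at the start of the gene, and holds 55.6% G and C. Capitals mark a GC box (GGGCGG, here on the other strand as CCGCCC) and a cAMP response element (TGACGTCA). Both motifs were searched on both strands in the 250 bases before the start of every gene, and they do not overlap here.
Epha2: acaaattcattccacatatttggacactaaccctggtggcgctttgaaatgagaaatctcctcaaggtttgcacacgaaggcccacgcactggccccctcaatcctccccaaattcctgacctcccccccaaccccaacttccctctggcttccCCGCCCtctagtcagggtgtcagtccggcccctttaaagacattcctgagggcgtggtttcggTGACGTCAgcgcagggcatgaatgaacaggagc
The response element was found before 478 of 27025 genes (1.77%) and before 1 of the 53 members with a promoter in the table, which was Epha2. The GC box was found before 9555 of 27025 genes (35.4%) and before 40 of the 53 members (75.5%). A match is a description of the letters and does not show that a factor binds there.

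In bipolar cells 3 EphA receptors were called, all higher. Epha3 rose from 41.8 ± 10.56 to 85.2 ± 23.2 CPM (1.02 ± 0.27, adjusted p = 0.00703), and lost the call without Phase I ROP replicate 1 (0.0566). Epha7, the receptor most particular in level to bipolar cells, went from 222 ± 52.4 to 311 ± 4.94 CPM (0.49 ± 0.17, adjusted p = 0.0265). Its call was lost with DESeq2 (0.0548), with all 4 groups in 1 fit (0.0535) and without any 1 of control replicates 2 and 3 and Phase I ROP replicates 1, 2 and 3 (0.0648 to 0.121). Epha10, another Eph receptor without kinase activity, went from 9.85 ± 5.18 to 23.6 ± 4.03 CPM (1.21 ± 0.42, adjusted p = 0.0301), and lost the call with DESeq2 (0.0921) and without any 1 of control replicates 1 and 2 and Phase I ROP replicates 1, 2 and 3 (0.0556 to 0.119). After thinning the class sums of the mice to equal depth its log2 fold change was 1.88. In amacrine cells Epha7 missed the threshold (0.64 ± 0.25, adjusted p = 0.0576). That effect was not shown to differ from the one in bipolar cells in the test of the difference (adjusted p = 0.776).

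Epha5 fell in rods and in no other class. It is a receptor of ganglion cell and forebrain axons (chromosome 5, 84054761 to 84417382, minus strand, GENCODE annotation of GRCm38), and its highest level was in Müller glia. In rods it lay at 143, 445 and 205 CPM in the control mice and at 59.9, 72.9 and 59.6 in the Phase I ROP mice. Control replicate 2 was far above the others, but all 3 controls were above all 3 Phase I ROP mice, and the log2 fold change was -2.24 ± 0.36 (adjusted p = 0.000187). Elsewhere it was not called, with values of 0.14 (cones), -0.08 (bipolar cells), 0.16 (amacrine cells) and -0.01 (Müller glia). The rod effect differed from each of these in the test of the difference, with adjusted p from 3.3e-05 (amacrine cells) to 0.00905 (cones).

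Among the EphB receptors 1 of 4 tested members was called. Ephb3 rose in amacrine cells from 6.70 ± 1.11 to 22.5 ± 6.64 CPM (1.69 ± 0.41, adjusted p = 0.00473). In Müller glia, where its level was highest, it was not called (0.24 ± 0.37, adjusted p = 0.712). The difference between these effects did not pass the test of the difference (log2 -1.58, adjusted p = 0.372). Ephb1, Ephb2 and Ephb6 were not called in any class.

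Of the semaphorins 13 of 20 were tested and 5 rose, each in 1 class. Sema7a, a lipid-anchored semaphorin that promotes axon growth, rose in bipolar cells. Its level there was 6.92, 2.81 and 4.81 CPM in the control mice and 19.5, 28.0 and 23.2 in the Phase I ROP mice, with no overlap (log2 fold change 2.23 ± 0.44, adjusted p = 0.00106). In amacrine cells Sema7a missed the threshold (1.01 ± 0.39, adjusted p = 0.0517), and in rods it was not called (0.95, adjusted p = 0.194). Neither effect was shown to differ from that in bipolar cells in the test of the difference (adjusted p = 0.569 and 0.486).

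The other 4 called semaphorins belong to class 4, transmembrane semaphorins of which several signal through B-type plexins. Sema4g rose in amacrine cells from 48.0 ± 8.61 to 87.8 ± 17.3 CPM (0.84 ± 0.22, adjusted p = 0.00844), and missed the threshold in the clustering without members (0.0634). Sema4c rose there from 4.18 ± 4.17 to 19.5 ± 4.75 CPM (2.11 ± 0.53, adjusted p = 0.00608), and its log2 fold change was 3.28 without control replicate 1. Sema4f, a synaptic semaphorin, had 3 UMIs in all control amacrine cells and 42 in those of Phase I ROP (adjusted p = 0.00276), a ratio of 11.6 with a 95% counting interval of 3.72 to 58.7. All 3 control UMIs came from control replicate 3, so that without it the control count was 0. Sema4b rose in rods from 6.32 ± 1.68 to 24.1 ± 4.99 CPM (1.68 ± 0.55, adjusted p = 0.0242), and lost the call with DESeq2 (0.0801) and without control replicate 2 (0.0539) or 3 (0.0830). Sema4c in bipolar cells (1.38, adjusted p = 0.0574) and Sema4d in amacrine cells (0.77, 0.0614) missed the threshold. The remaining semaphorins tested, Sema3a, Sema3d, Sema3e, Sema3f, Sema5a, Sema5b and Sema6a, were not called in any class, with log2 fold changes from -0.58 to 1.25.

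Plexins had 10 calls in 20 tests, 8 higher and 2 lower, over 6 of 7 tested members. Plxnb2, a receptor for class 4 semaphorins, rose in both inner retinal neuron classes. In amacrine cells it lay at 10.1, 6.74 and 5.32 CPM in the control mice and at 30.9, 26.0 and 24.9 in the Phase I ROP mice (1.82 ± 0.38, adjusted p = 0.00185). In bipolar cells it lay at 11.1, 18.3 and 25.2 CPM against 64.6, 47.2 and 49.2 (1.54 ± 0.34, adjusted p = 0.0022). The groups did not overlap in either class, while in rods (1.07, adjusted p = 0.0742) and Müller glia (0.88, adjusted p = 0.259) Plxnb2 was not called. In the test of the difference the rod and Müller effects were not shown to differ from that in amacrine cells (adjusted p = 0.44 and 0.67). Nor were they shown to differ from that in bipolar cells (0.83 and 0.64).

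Plxna2 (chromosome 1, 194618218 to 194816869, plus strand) rose in 3 classes, the most of any member. In rods it lay at 185, 163 and 159 CPM in the control mice and at 441, 363 and 416 in the Phase I ROP mice (1.09 ± 0.22, adjusted p = 0.00116). In bipolar cells it lay at 48.4, 49.2 and 34.9 CPM against 94.6, 84.0 and 73.8 (0.93 ± 0.24, adjusted p = 0.00637). Every Phase I ROP mouse was above every control in both classes. After thinning the class sums of the mice, not the single cells, to equal depth the bipolar value was 0.55 and the call was lost (adjusted p = 0.108). In amacrine cells Plxna2 went from 149 ± 28.8 to 216 ± 40.6 CPM (0.51 ± 0.17, adjusted p = 0.0309), and lost the call with DESeq2 (0.0638), without control replicate 1 (0.166) and without Phase I ROP replicate 3 (0.143). In cones the value was 1.76 ± 0.66, on 6 control and 97 Phase I ROP UMIs, and missed the threshold (adjusted p = 0.0616). Rods were the class in which Plxna2 was highest, and the rod markers in bipolar and amacrine cells rose beside it as given above.

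Plxna1 rose in amacrine cells, its highest class, from 61.6 ± 12.8 to 115 ± 7.15 CPM (0.87 ± 0.19, adjusted p = 0.00267). Plxnb1 went from 12.9 ± 9.18 to 39.2 ± 10.9 CPM in rods (1.42 ± 0.50, adjusted p = 0.0359), and lost the call without any 1 of control replicates 2 and 3 and Phase I ROP replicates 1 and 3 (0.0525 to 0.132), with DESeq2 (0.0625) and in cells over 500 genes (0.0659). Plxnc1, the receptor for Sema7a, went from 16.6, 26.4 and 30.6 CPM in control Müller glia to 91.4, 74.7 and 43.8 (1.53 ± 0.45, adjusted p = 0.0408). Its groups did not overlap, but the call was lost with DESeq2 (0.114), with the replicate block (0.0627), with no filter on low counts (0.0620), with all 4 groups in 1 fit (0.0588) and without any 1 mouse other than Phase I ROP replicate 3 (0.0759 to 0.184).

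Plxna4, a partner of neuropilins in class 3 semaphorin signalling, was the plexin that fell. In rods it lay at 170, 251 and 210.1 CPM in the control mice and at 137, 126 and 89.4 in the Phase I ROP mice, without overlap (-1.03 ± 0.26, adjusted p = 0.00556). That call was lost without Phase I ROP replicate 3 (0.0691), with no filter on low counts (0.139) and in the largest rod cluster alone (0.0620). In amacrine cells Plxna4 went from 217 ± 25.8 to 167 ± 21.8 CPM (-0.41 ± 0.15, adjusted p = 0.0470), and lost the call with DESeq2 (0.104), with no filter (0.107), with all 4 groups in 1 fit (0.0542), without the cells of highest doublet score (0.0751) and without any 1 of control replicate 1 (0.179) and Phase I ROP replicates 1 (0.0573), 2 (0.0808) and 3 (0.225). In bipolar cells, its highest class, it was not called (-0.12, adjusted p = 0.612). The rod and amacrine effects were not shown to differ from that in bipolar cells in the test of the difference (adjusted p = 0.120 and 0.851). Plxna3 was tested in amacrine cells and not called.

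**Figure D3:**
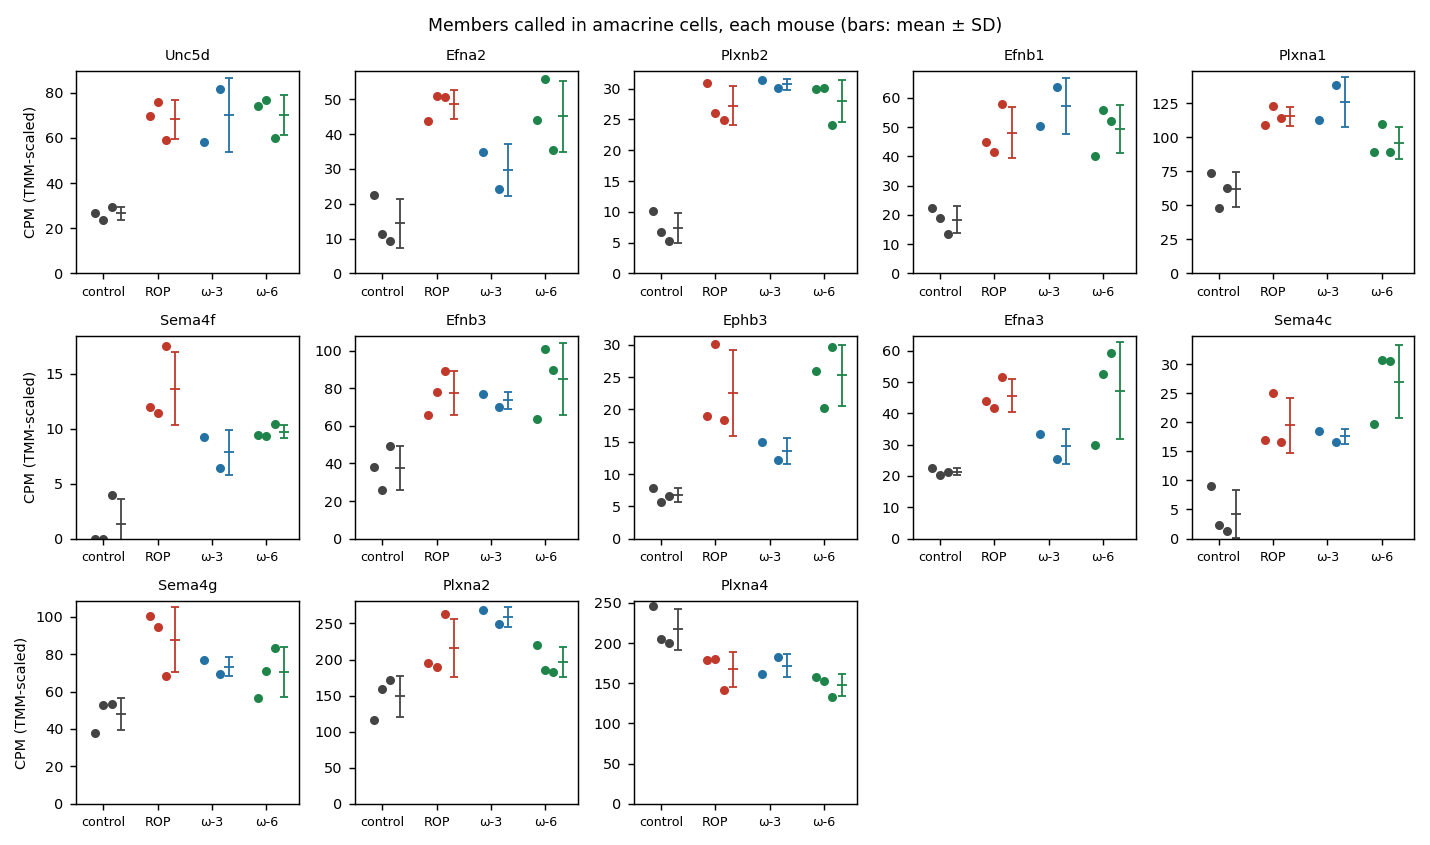
Level of the 13 called members in amacrine cells of each of the 11 mice by group, in UMIs per 1000000 scaled by TMM, with the mean ± SD of each group beside its points. Points of 12 members lie higher and those of Plxna4 lower in Phase I ROP than in control mice, such as 23.6 to 29.3 against 59.0 to 75.96 for Unc5d.

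**Figure D4:**
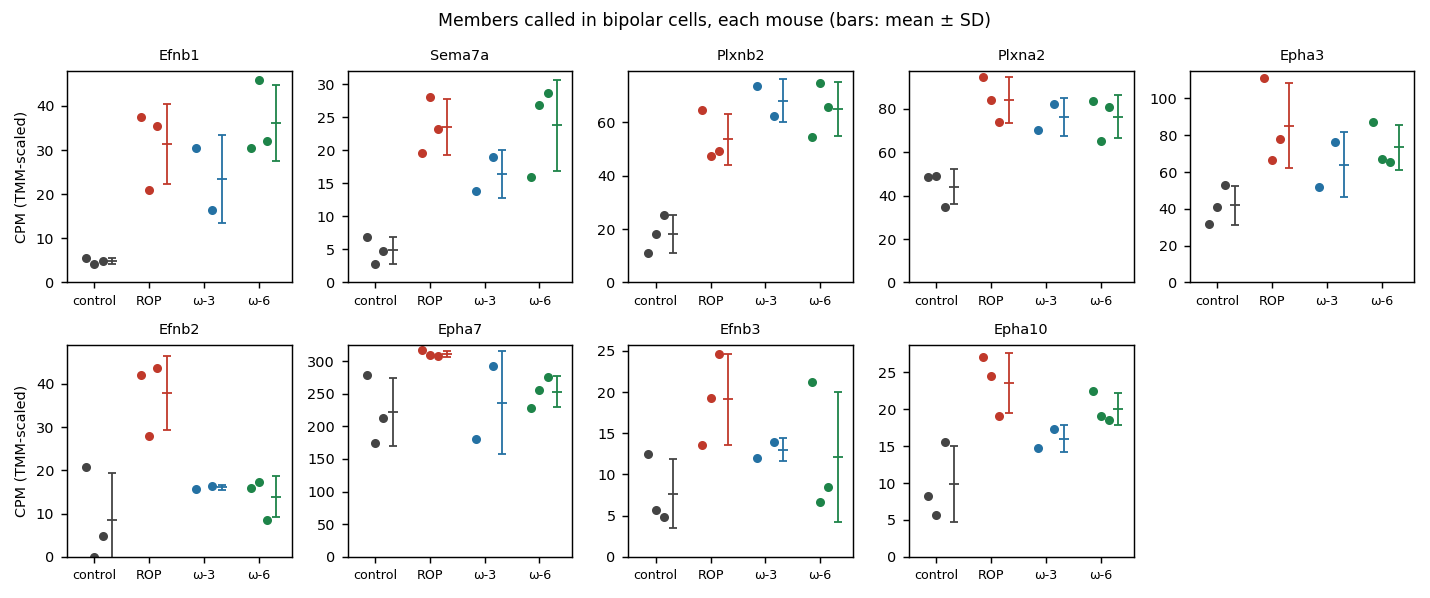
Level of the 9 called members in bipolar cells of each of the 11 mice by group, in UMIs per 1000000 scaled by TMM, with the mean ± SD of each group beside its points. All 9 are higher in Phase I ROP than in control mice, Efnb1 at 21.0 to 37.5 against 4.22 to 5.53, and 1 control mouse stands apart for Efnb2.

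Slit2 and its receptor Robo2 fell in rods. Slit2 (chromosome 5, 47983138 to 48307733, plus strand) is a secreted repellent and Robo2 lies on chromosome 16 (73891839 to 74411825, minus strand). Slit2 lay at 26.4, 66.1 and 60.6 CPM in control rods and at 11.6, 5.95 and 5.26 in Phase I ROP rods, without overlap (-2.90 ± 0.49, adjusted p = 0.000265). Robo2 went from 26.4 to 30.8 CPM in control mice to 1.49 to 14.5 in Phase I ROP mice (-2.18 ± 0.59, adjusted p = 0.00859). The Robo2 call rested on few UMIs, 26 in control and 20 in Phase I ROP rods. It was lost without Phase I ROP replicate 2 (0.0600) or 3 (0.0806), and without Phase I ROP replicate 1 the log2 fold change was -3.41. Neither was called in the other classes tested, with Slit2 at 0.22 (bipolar) and 0.18 (amacrine), and Robo2 at -0.23 (bipolar), 0.01 (amacrine) and 0.43 (Müller). The rod effect of Slit2 differed from that in bipolar cells by log2 2.93 (adjusted p = 0.000575) and from that in amacrine cells by 3.03 (0.000143). Cones had too few Slit2 counts for a test on their own. In the same test of the difference, their effect lay below that in bipolar cells by 3.02 (0.00816). It lay below that in amacrine cells by 2.93 (0.0350) and did not differ from that in rods (0.47, adjusted p = 0.886). The Slit2 effect was thus not shown to be particular to rods among the photoreceptors. For Robo2 it differed from that in amacrine cells by 2.23 (0.0180) and from that in Müller glia by 2.82 (0.0184), and missed the threshold against bipolar cells (1.81, adjusted p = 0.0630). Robo1 in amacrine cells was not called (0.02).

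The markers of other classes within the rods moved beside these falls. The 14 bipolar markers, none at 0, took 0.0480 to 0.0799% of the UMIs of control rods and 0.0277 to 0.0306% of those of Phase I ROP rods. The 16 amacrine markers, with 2 at 0 in control and 1 in Phase I ROP, took 0.0313 to 0.0622% and 0.0203 to 0.02502%, and the 8 cone markers 0.0296 to 0.0546% and 0.00669 to 0.0174%. The 12 Müller markers were higher in Phase I ROP, at 0.0285 to 0.0313% and 0.0398 to 0.0412%, and so were the 10 rod markers themselves, at 1.32 to 2.32% and 3.36 to 4.69%. The largest rod cluster held 54.95% of control and 83.45% of Phase I ROP rods. In that cluster alone, an alternative chosen after seeing the data, Epha5 fell by 1.38 on the log2 scale (adjusted p = 0.00117) and Plxna2 rose by 1.46 (5.35e-05), while Slit2, Robo2 and Sema4b had too few counts to be tested. The part of the markers and clusters in the other rod values was not tested.

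**Figure D5:**
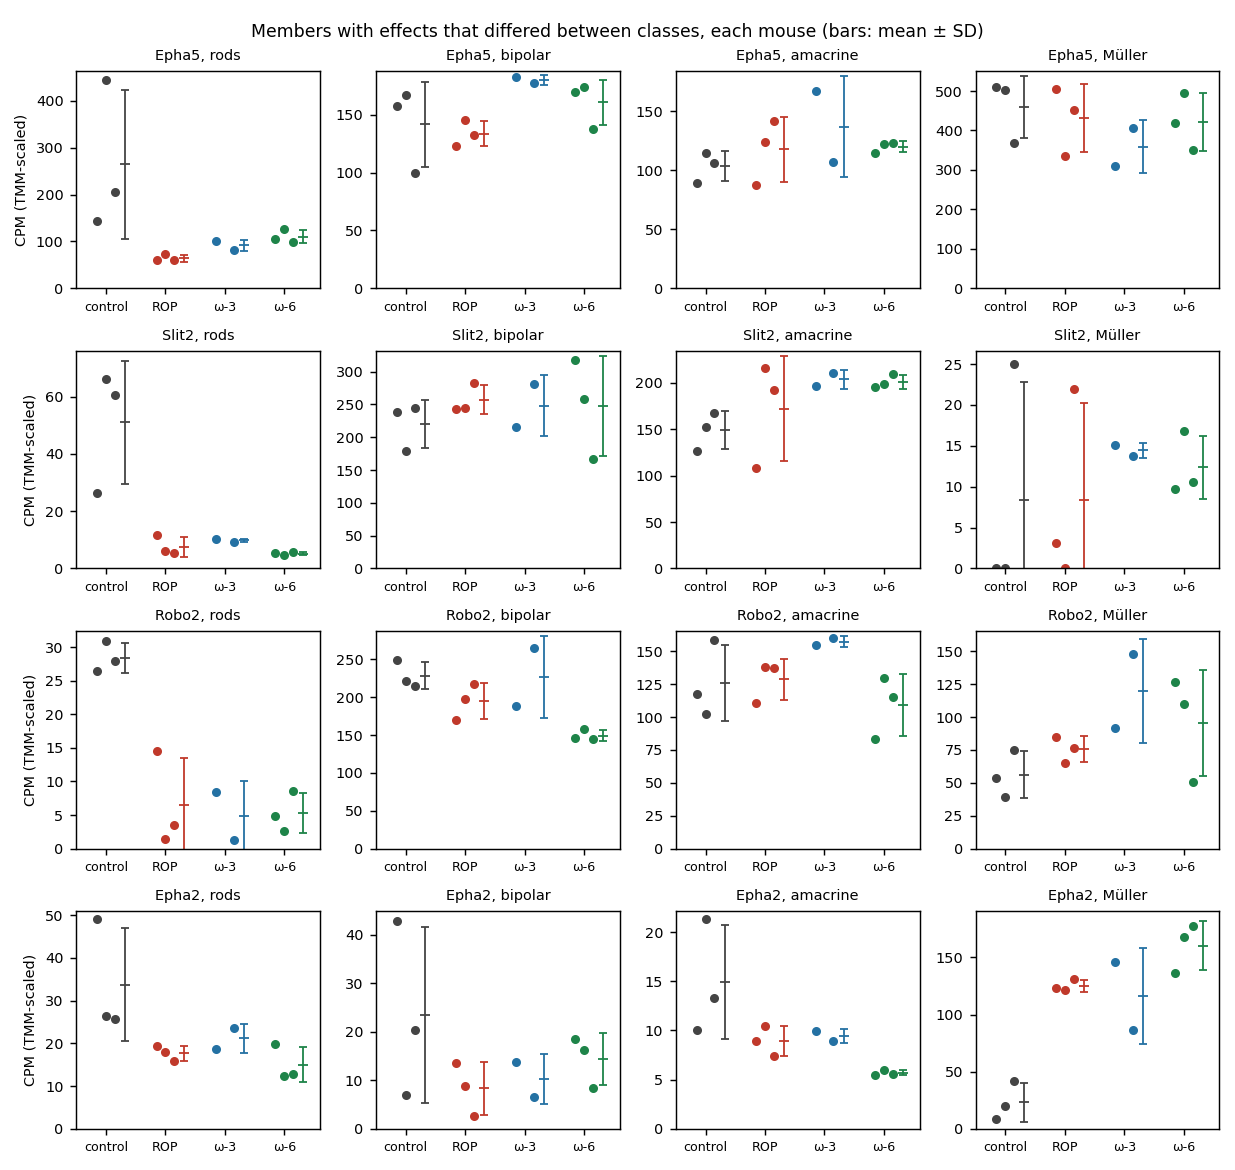
Level of Epha5, Slit2, Robo2 and Epha2 in rods, bipolar cells, amacrine cells and Müller glia of each of the 11 mice by group, in UMIs per 1000000 scaled by TMM, with the mean ± SD of each group beside its points. In rods Epha5, Slit2 and Robo2 lie lower in all 3 Phase I ROP mice than in the controls, while Epha2 in Müller glia lies at 121 to 131 against 8.29 to 41.8.

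Among the netrin receptors Unc5d, a repulsive receptor that also binds Flrt proteins, rose in amacrine cells with the smallest adjusted p of any member there. The gene lies on chromosome 8 (28646717 to 29219636, minus strand). It was measured at 26.9, 23.6 and 29.3 CPM in the control mice and at 69.7, 75.96 and 59.0 in the Phase I ROP mice. The groups were well apart, with a log2 fold change of 1.33 ± 0.24 (adjusted p = 0.000571), but the call was lost in the clustering without members (0.88, adjusted p = 0.202). In bipolar cells Unc5d was not called (0.52, adjusted p = 0.192). The amacrine and bipolar effects were not shown to differ in the test of the difference (log2 0.93, adjusted p = 0.323). Unc5a in amacrine cells (1.51 ± 0.59, adjusted p = 0.0564) and Unc5c in bipolar cells (-0.80 ± 0.33, adjusted p = 0.0629) missed the threshold. Unc5c was not called in rods (-0.33), amacrine cells (0.15) or Müller glia (0.04). The netrin Ntn4 in Müller glia had a log2 fold change of -0.06 ± 0.43 (adjusted p = 0.945).

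The diet mice also received STZ, and any comparison of them with control mice shares those controls, so their levels are set beside the others without a test. In amacrine cells the 5 diet mice lay at 58.4 to 81.8 CPM for Unc5d, 40.2 to 63.9 for Efnb1, 24.3 to 55.8 for Efna2 and 24.1 to 31.3 for Plxnb2. In bipolar cells they lay at 16.5 to 45.9 CPM for Efnb1, 13.8 to 28.6 for Sema7a and 54.3 to 74.6 for Plxnb2. All of these lay above the 3 control mice. Other called members overlapped the control mice. In bipolar cells Efnb2 lay at 8.42 to 17.2 CPM in the diet mice, inside the control span of 0 to 20.8, and Epha7 at 181 to 292 against 174 to 278. Efnb3 lay at 6.70 to 21.2 CPM against 4.81 to 12.4, Epha3 at 51.6 to 87.4 against 31.8 to 52.9, and Epha10 at 14.8 to 22.5 against 5.62 to 15.6. Plxnc1 in Müller glia overlapped too, at 16.2 to 50.3 CPM against 16.6 to 30.6. Epha2 in Müller glia lay at 86.7 to 177 CPM in the diet mice. In their rods Epha5 lay at 82.5 to 126 CPM, Slit2 at 4.55 to 10.2, Robo2 at 1.22 to 8.56 and Plxna2 at 351 to 455.

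Beyond the ligands and receptors, 57 of 58 listed co-receptors, adaptors and cytoskeletal effectors of these pathways were in the table. In amacrine cells 22 of 47 tested rose and 4 fell, in bipolar cells 16 of 33 rose and 3 fell, and in rods 6 of 18 rose and 5 fell. In cones 3 of 10 rose and 0 fell, and in Müller glia 2 of 21 rose and 0 fell, beside the shares of all genes given above. Flrt3, a membrane protein that binds Unc5 and Robo receptors, rose by log2 1.43 in amacrine and 2.46 in bipolar cells, and Dscam, an adhesion receptor that also binds netrin, by 1.32 in amacrine cells and 2.35 in rods. Trio, a guanine nucleotide exchange factor downstream of Dcc, rose by 1.07 in amacrine cells, 1.16 in bipolar cells and 2.52 in Müller glia, and had 0 UMIs in control and 83 in Phase I ROP cones, at least 5.94-fold higher against a floor of 3 counts over the group. Lower in Phase I ROP were the GTPase Cdc42 (-0.71 in amacrine and -1.03 in bipolar cells), the actin regulator Enah (-1.08 in bipolar cells and -1.67 in rods) and the actin-severing protein Cfl1 (-0.54 in bipolar cells and -0.74 in rods). Dpysl3, a collapsin response mediator, rose by 1.09 in bipolar cells, 1.01 in cones and 1.29 in rods. The same rule also named Fyn and Lrrc4 in amacrine cells (1.02 and 1.85), Srgap3 in Müller glia (1.42), Nck1 in rods (1.81), and Dscaml1 in rods (1.30) and cones (1.56), all higher.

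The ω-6 and ω-3 diets were compared in the same way in the STZ mice, 3 against 2, to ask whether the fatty acid supply changed these genes. No member was called in any class by edgeR, nor by DESeq2, of 23 tested for rods, 13 for cones, 36 for bipolar cells, 47 for amacrine cells and 26 for Müller glia. Over all genes 0.0161% were called in rods and 0.0% in each of the other 4 classes. At an unadjusted p under 0.05 there were 1, 1, 2, 6 and 1 members in that order of classes, and the smallest adjusted p of a member was 0.403. Member log2 fold changes (ω-6 over ω-3) ran from -0.83 to 0.43 (rods), -0.62 to 1.15 (cones), -0.65 to 0.65 (bipolar), -0.99 to 0.93 (amacrine) and -1.05 to 0.98 (Müller).

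Ephb3 and Robo2 each had an unadjusted p under 0.05 in 2 classes in the diet comparison. Ephb3 lay at 15.0 and 12.1 CPM in ω-3 and 26.0, 20.2 and 29.7 in ω-6 amacrine cells (log2 fold change 0.90 ± 0.32). In Müller glia it lay at 31.5 and 27.6 CPM against 61.7, 62.2 and 52.9 (0.98 ± 0.37). The ω-6 mice were above the ω-3 mice in both classes, but the adjusted p was 0.480 and 0.994. Robo2 lay at 189 and 265 CPM in ω-3 and 146, 158 and 145 in ω-6 bipolar cells (-0.60 ± 0.21, adjusted p = 0.991), and at 155 and 160.0 against 83.5, 129.6 and 116 in amacrine cells (-0.50 ± 0.19, adjusted p = 0.491). The other values of this kind were Plxna2 (-0.39), Efna3 (0.70), Efna2 (0.64) and Sema7a (0.54) in amacrine cells, Unc5d in bipolar cells (-0.65), Efna5 in cones (1.15) and Sema4b in rods (-0.72). Each failed the adjustment over all genes.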

How the data were processed

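The authors deposited 1 table of UMI counts per gene and cell for 11 libraries, 1 per mouse, made with bcbio-nextgen on mm10 (GRCm38.p6). Barcodes with few reads had been removed. No column of another sample was present (0). Cells with more than 300 genes and genes in more than 10 cells were log-normalised and clustered with Seurat 5.3.0 (2000 variable genes, 75 components, resolution 0.2). Clusters were named where at least 3 markers of a class were over 2-fold higher. A cluster still stayed unnamed where its 10 leading genes held more markers of another class than of that class. The 2 stated comparisons were run in classes with at least 10 cells in each mouse. UMI counts summed per mouse and class were tested over all genes with edgeR 4.0.16 (quasi-likelihood, TMM, filterByExpr) in R 4.3.3, tested beforehand on simulated data. Classes held 13 to 1590 cells and 37038 to 2466298 UMIs per mouse, and counts limit precision most in cones. Printed levels are TMM-scaled counts per 1000000 (CPM), so ratios can differ a little from fitted fold changes. Differences of an effect between 2 classes were tested as interactions with the mouse as a block.

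Members and lists were chosen with earlier results of these data known. Every called member is named. Single mice of the control comparison are given for up to 4 per class, by smallest adjusted p among called members whose groups did not overlap. For levels, up to 6 members per class of at least 20 CPM are named by ratio to the next class, for small classes and sub-clusters up to 5 with at least 10 UMIs, and up to 6 effectors per class by adjusted p. The fits were repeated with no low-count filter, with DESeq2 1.42.0, with its scaling in edgeR and with all 4 groups in 1 fit. They were also repeated over 500 genes per cell, after doublet removal (4.26% of cells), clustering without members, with a replicate block and leaving out each mouse. In a further repeat the class sums of the mice, not the single cells, were thinned to equal depth. Rods of the largest rod cluster alone were added after seeing the data.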

Additional observations from a re-analysis of the deposited data

Results flagged for a closer look

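The effect of Phase I ROP on a member differed between 2 cell classes in 26 of 279 tests, each of 1 member in 1 of 10 pairs of classes. The interaction test of edgeR was used, with the adjustment over all genes of each pair of classes (3 control and 3 Phase I ROP mice). Of these, 13 had a call in at least 1 of the classes and are given here. Differences are log2 fold changes in the class named first minus those in the class named second.

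Epha5, lower in Phase I ROP in rods alone among the classes tested, accounted for 4 of them. The difference was 2.38 between cones and rods (adjusted p = 0.00905), 1.89 between bipolar cells and rods (0.00183), 2.32 between amacrine cells and rods (3.3e-05) and 2.15 between Müller glia and rods (0.000377). Slit2 differed by 2.93 between bipolar cells and rods (0.000575) and by 3.03 between amacrine cells and rods (0.000143). Its receptor Robo2 differed by 2.23 between amacrine cells and rods (0.0180) and by 2.82 between Müller glia and rods (0.0184). Epha2, higher in Phase I ROP in Müller glia, differed by 3.52 between Müller glia and rods (0.00184), by 3.86 between Müller glia and bipolar cells (0.00813) and by 3.04 between Müller glia and amacrine cells (0.0245). It was not shown to differ between Müller glia and cones (1.435, adjusted p = 0.810). For Epha3, called in bipolar cells, the difference between bipolar cells and rods was 3.21 (0.0143), and for Sema4g, called in amacrine cells, that between amacrine cells and rods was 4.45 (0.00486). Rods held only 15 control and 10 Phase I ROP UMIs of Epha3 and 8 and 2 of Sema4g, too few for a test in rods alone. An unrecorded difference between the libraries and STZ cannot be told apart in any of these values.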

How the results depend on the processing

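All 604 alternative values of the 42 named member values kept their direction. Scaling by median of ratios changed no member count, and no fit called a member in the diet comparison. Of the 31 calls, DESeq2 lost 9, the fit of all 4 groups 4, and clustering without members 6 of the 27 it could test, all in amacrine cells. The members called in rods, 7 as reported, were 11 with no low-count filter, 14 with all 4 groups fitted together, 4 in cells over 500 genes, 3 after thinning and 3 in the largest rod cluster. Leaving out 1 mouse gave 4 (without Phase I ROP replicate 3) to 11 (without control replicate 1). In cones, 0 as reported, 1 member was called with all 4 groups and 1 after doublet removal, and 0 to 1 without 1 mouse (1 without control replicate 1 or 3). In bipolar cells, 9 as reported, 5 were called by DESeq2, 15 with no filter, and 5 (without Phase I ROP replicate 3) to 10 without 1 mouse. In amacrine cells, 13 as reported, 7 were called when clustered without members (1932 cells in place of 3287, a cluster of 1417 being unnamed), and 12 to 15 without 1 mouse. In Müller glia, 2 as reported, 1 was called by DESeq2, 1 with no filter, 1 with all 4 groups, 1 with the replicate block, and 1 to 2 without 1 mouse (2 without Phase I ROP replicate 3). The cause was not tested. Members highest in rods were 2 in place of 1 after thinning and 2 when clustered without members, and those highest in cones were 3 in place of 5 when clustered without members.

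Mice of the same number correlated by -0.0504 to 0.154 (control and Phase I ROP) and 0.0485 to 0.273 (diets), so the numbers were not taken to pair them. With the replicate block 7, 0, 12, 15 and 1 members were called in rods, cones, bipolar cells, amacrine cells and Müller glia, and 0 in each class for the diets. Cones, with as few as 13 cells in a mouse, let only 4 members be tested against control.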
